A study of Mus musculus with 9 samples.

Results

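The 10 genes described here code for effectors of cornification, the conversion of granular keratinocytes into the dead corneocytes of the skin surface. They are the transglutaminase genes Tgm1, Tgm2, Tgm3 and Tgm5, the protease genes Casp14 and Asprv1, the envelope gene Cnfn, and the granular layer genes Sbsn, Krtdap and Dmkn. They were listed by function and taken as the matching mouse Ensembl genes of the deposited count tables, 10 of 54838 genes. The list was selected on function with the raw counts of all 9 libraries in view, so the values of these genes are given as a description, and how many passed a test is given only beside the same share of all genes. All 10 were found, and all 10 passed the filter on low counts.

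RNA was read by 3' tag sequencing, which counts each transcript near its 3' end, in ears of C57BL/6 mice aged 10 weeks. Every mouse had received 15 µg of minicircle DNA by hydrodynamic tail vein injection, a route that is known to transfect mainly the liver. The groups were Mdl-1-/- mice with DNA for interleukin 23 (IL-23), wild-type (WT) mice given that IL-23 DNA, and WT mice with DNA for green fluorescent protein (GFP), with 3 libraries each. No Mdl-1-/- libraries with GFP DNA were analysed here, so a genotype difference present without IL-23 cannot be told apart from a different response to IL-23. The labels number the libraries of a group 1 to 3, name neither the design of the Mdl-1-/- allele nor separate animals, and p-values therefore measure the spread between libraries, which may be technical.

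Totals ran from 3776188 to 5605713 counts per library. Levels are given as CPM, counts relative to a library size scaled by trimmed mean of M-values. Log2 fold changes are given in 3 comparisons: genotype (Mdl-1-/- over WT, both with IL-23 DNA), IL-23 in WT (IL-23 over GFP DNA), and Mdl-1-/- IL-23 over WT GFP. Clec5a, the gene of MDL-1, had 10, 13 and 5 counts in Mdl-1-/- IL-23 libraries, against 17, 21 and 11 in WT IL-23 libraries and 2, 7 and 10 in WT GFP libraries; without knowledge of the deleted part, a 3' tag does not check the genotype. All 11 listed basal keratinocyte genes were read in every library, and their summed level was 8140 to 11100 CPM in Mdl-1-/- IL-23 libraries, 10800 to 13600 in WT IL-23 libraries and 10200 to 12700 in WT GFP libraries. Mitochondrial transcripts took 11.4% to 12.9%, 8.69% to 8.99% and 12.6% to 15.1% of counts in the same 3 groups. Summed adipocyte markers stood at 101 to 156, 102 to 158 and 328 to 671 CPM, and those of neutrophils at 6710 to 26000, 35100 to 74500 and 262 to 384 CPM. The neutrophil sum is led by S100a8 and S100a9, which inflamed keratinocytes also make, and the other 9 genes summed to 48.4 to 115, 247 to 315 and 20.5 to 62.2 CPM. Sebocyte markers summed to 1250 to 1520, 960 to 1210 and 1930 to 2260 CPM, and cartilage markers to 134 to 185, 90.6 to 125 and 277 to 333 CPM, both without overlap between groups. The sebocyte sum is led by Fa2h and Defb6. Defb6 averaged 518, 501 and 89.6 CPM in the same 3 groups, lowest in GFP libraries, where the sum was highest. The part of these shifts in the values below was not tested. In bulk tissue, fewer cells of a type and less RNA per cell cannot be told apart.

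Transglutaminases join glutamine and lysine side chains and so weld the envelope proteins into an insoluble shell beneath the corneocyte membrane. Proteases of the granular and cornified layers at the same time cut profilaggrin into filaggrin and later into the free amino acids that hold water in the skin. Suprabasin, dermokine and the Krtdap product are secreted by differentiating keratinocytes, and suprabasin is a transglutaminase substrate in mouse epidermis. In psoriasis-like inflammation this programme is known to run in a hurried and altered form.

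In WT ears, 8 of the 10 genes were higher with IL-23 DNA than with GFP DNA, Sbsn was lower, and Tgm5 differed little. In Mdl-1-/- ear with IL-23 DNA the genes divided. Tgm1, Asprv1, Cnfn and Krtdap stood close to their WT IL-23 level, Casp14, Tgm2 and Tgm3 were 2.03-fold to 3.09-fold lower, and Sbsn was 2.91-fold higher. Dmkn lay slightly lower than in WT.

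**Figure D1:**
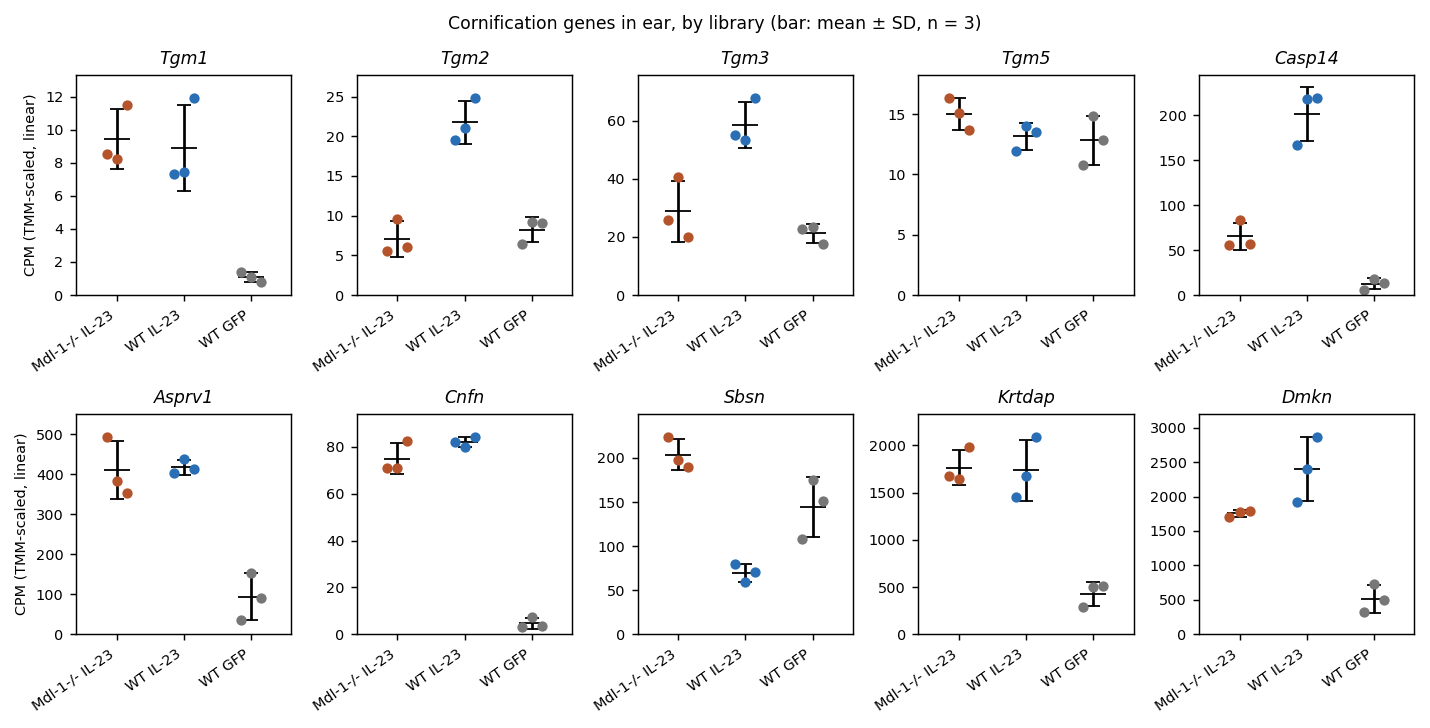
CPM (linear axis, y) of the 10 genes in the 9 libraries, by group (x); points are libraries and bars give the mean ± SD of 3. Tgm2, Tgm3 and Casp14 peak in the WT IL-23 group, Sbsn has its lowest values there, and Tgm1, Asprv1, Cnfn and Krtdap are high in both IL-23 groups.

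Tgm1 codes for the membrane-anchored transglutaminase that starts envelope assembly and whose loss causes lamellar ichthyosis in humans. The gene (ENSMUSG00000022218) lies on chromosome 14 at 55700009 to 55713926, minus strand, of GRCm38. Tgm1 had 8.50, 8.23 and 11.5 CPM in Mdl-1-/- IL-23 libraries, 7.33, 7.44 and 11.9 CPM in WT IL-23 libraries and 1.39, 1.10 and 0.773 CPM in WT GFP libraries. Both IL-23 groups lay wholly above the GFP group and overlapped each other. Tgm1 was 7.94-fold higher in WT IL-23 than in GFP ears (log2 fold change 2.99, SE 0.37) and 8.52-fold higher in Mdl-1-/- IL-23 than in GFP ears (3.09, SE 0.36). The genotype log2 difference was 0.10 (SE 0.29). The GFP level rests on 8, 6 and 5 counts.

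Tgm3 codes for a transglutaminase that is activated by proteolysis and works in the envelope and in the hair shaft and its inner root sheath. The gene (ENSMUSG00000027401) lies on chromosome 2 at 130012349 to 130050399, plus strand. Tgm3 had 25.9, 40.5 and 19.9 CPM in Mdl-1-/- IL-23 libraries, 55.0, 53.2 and 67.8 CPM in WT IL-23 libraries and 22.8, 23.3 and 17.5 CPM in WT GFP libraries. All WT IL-23 libraries were above every other library, and the Mdl-1-/- and GFP ranges overlapped. Its log2 fold change was -1.02 (SE 0.22) for genotype, 1.47 (SE 0.22) for IL-23 in WT, and 0.44 (SE 0.23) for Mdl-1-/- IL-23 over WT GFP. Hair follicle markers, 16 of the 17 listed being matched to the table, summed to 61.7, 20.6 and 13.2 CPM in the 3 Mdl-1-/- libraries, against 8.76 to 22.2 CPM in WT IL-23 libraries and 22.1 to 24.7 CPM in GFP libraries. Of these 16 genes 4 were read in all 9 libraries, and the part of hair follicles in the Tgm3 values was not tested.

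Tgm2 codes for tissue transglutaminase, which many cell types outside the epidermis also make. Tgm2 had 5.59, 9.61 and 5.99 CPM in Mdl-1-/- IL-23 libraries, 19.5, 21.0 and 24.8 CPM in WT IL-23 libraries and 6.44, 9.18 and 9.13 CPM in WT GFP libraries. The WT IL-23 libraries stood apart from both other groups, which overlapped. On the log2 scale the change was -1.61 (SE 0.26) for genotype, 1.39 (SE 0.24) for IL-23 in WT and -0.22 (SE 0.26) for Mdl-1-/- IL-23 over WT GFP. Of cells that can also express Tgm2, endothelial genes summed to 17.2 to 36.0 CPM in Mdl-1-/- IL-23 libraries, 27.3 to 53.0 CPM in WT IL-23 and 40.9 to 53.1 CPM in GFP libraries. Fibroblast genes summed to 302 to 870, 491 to 987 and 806 to 1220 CPM in the same 3 groups, and macrophage genes to 94.7 to 112, 64.9 to 119 and 70.2 to 122 CPM. The part of these cells in the Tgm2 values was not tested.

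Tgm2 (ENSMUSG00000037820; chromosome 2, 158116402 to 158146436, minus strand) ends inside the annotated span of Rprd1b on the plus strand, with 15896 bases in common. Reads of the 2 genes cannot be told apart there without a stranded count, and the strand setting is not given in the sources used here. Rprd1b, which codes for a regulator of RNA polymerase II, had 76.3, 67.5 and 73.3 CPM in Mdl-1-/- IL-23 libraries, 90.5, 99.6 and 97.5 CPM in WT IL-23 libraries and 66.3, 75.8 and 69.8 CPM in GFP libraries. It moved in the same directions by less, with log2 fold changes of -0.41 (SE 0.13, edgeR adjusted p = 0.0446) for genotype and 0.44 (SE 0.13, adjusted p = 0.0128) for IL-23 in WT. Whether Rprd1b reads enter the Tgm2 count was not tested. The other members had no overlapping annotated gene with a count.

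Tgm5 codes for a transglutaminase of the upper epidermis whose loss causes acral peeling skin in humans. The gene (ENSMUSG00000053675) lies on chromosome 2 at 121046111 to 121085841, minus strand. Tgm5 had 16.3, 15.1 and 13.7 CPM in Mdl-1-/- IL-23 libraries, 11.9, 14.01 and 13.6 CPM in WT IL-23 libraries and 10.8, 14.9 and 12.8 CPM in WT GFP libraries. The 3 groups overlapped. Its log2 fold changes were 0.19 (SE 0.21) for genotype, 0.04 (SE 0.21) for IL-23 in WT and 0.23 (SE 0.20) for Mdl-1-/- IL-23 over WT GFP. With upper-quartile scaling the WT IL-23 value against GFP was -0.12.

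The make-up of the transglutaminase transcripts also differed between groups. Tgm1 supplied 16.3% ± 5.75 of the summed CPM of the 4 genes in Mdl-1-/- IL-23 libraries, 8.56% ± 1.32 in WT IL-23 libraries and 2.52% ± 0.750 in GFP libraries (SD, n = 3), without overlap between groups. Its share differed between genotypes although its own mean level differed little, at 9.41 CPM in Mdl-1-/- IL-23 and 8.89 CPM in WT IL-23 libraries. The largest share was that of Tgm3, at 46.7% ± 8.11, 57.2% ± 1.55 and 48.9% ± 5.83 in the 3 groups. Tgm2 supplied 11.6% ± 1.59, 21.3% ± 0.629 and 19.1% ± 3.57 in the same order, the Mdl-1-/- share being below both others. Tgm5 took 25.4% ± 4.36 in Mdl-1-/- IL-23, 12.9% ± 1.59 in WT IL-23 and 29.6% ± 3.10 in GFP libraries, so its share was lowest in WT IL-23 ears although its own level differed little. The summed level was 60.3, 102 and 43.4 CPM on average. A share of tags compares libraries and not the amounts of the 4 proteins.

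**Figure D2:**
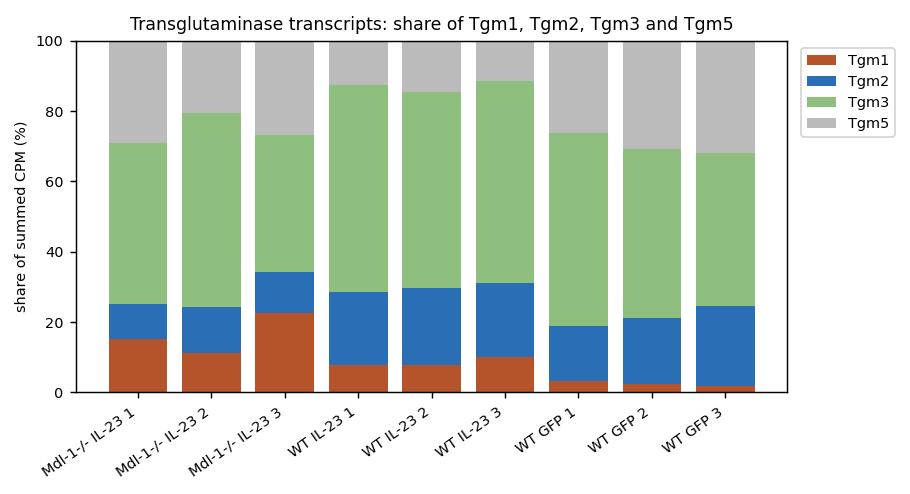
Share (%, y) of Tgm1, Tgm2, Tgm3 and Tgm5 in their summed CPM in each of the 9 libraries (x). Tgm1 takes 11.2% to 22.5% in Mdl-1-/- IL-23 libraries, 7.78% to 10.1% in WT IL-23 libraries and 1.92% to 3.36% in GFP libraries.

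Of the other genes of the transglutaminase family, F13a1, which codes for the A chain of coagulation factor XIII and is made by tissue macrophages, was the only 1 of 5 that could be tested. It fell to 5.57 ± 2.72 CPM in WT IL-23 ears, against 14.5 ± 1.90 CPM in GFP ears (SD, n = 3; log2 fold change -1.36, SE 0.31, edgeR adjusted p = 0.00239). Tgm4, Tgm6 and Epb42 had at most 4 counts in any library. Tgm7 had 0 counts in all 9 libraries, which allows up to 3 counts in each, counting error only. On the unscaled library totals, 3 counts equal 0.535 CPM in the deepest and 0.794 CPM in the shallowest library. These values lack the scaling by trimmed mean of M-values that the other levels have.

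The protease genes behaved unlike each other between genotypes. Casp14 codes for caspase-14, a cornification protease that takes part in the breakdown of filaggrin, and lies on chromosome 10 at 78711991 to 78718294, minus strand (ENSMUSG00000005355). Casp14 had 55.7, 83.0 and 57.0 CPM in Mdl-1-/- IL-23 libraries, 167, 219 and 219 CPM in WT IL-23 libraries and 6.09, 18.0 and 13.3 CPM in WT GFP libraries. No library of a group reached the range of another, and the Mdl-1-/- group lay between the WT groups. The log2 change came to -1.63 (SE 0.29) for genotype, 4.01 (SE 0.32) for IL-23 in WT and 2.39 (SE 0.32) for Mdl-1-/- IL-23 over WT GFP.

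Asprv1 codes for the retroviral-like aspartic protease of the granular layer, which cuts profilaggrin in mouse skin. The gene (ENSMUSG00000033508) lies on chromosome 6 at 86628164 to 86629710, plus strand. Asprv1 had 492, 384 and 354 CPM in Mdl-1-/- IL-23 libraries, 403, 439 and 413 CPM in WT IL-23 libraries and 36.9, 155 and 91.3 CPM in WT GFP libraries. The IL-23 groups overlapped and both were above all GFP libraries. Fold changes on the log2 scale were -0.03 (SE 0.43) for genotype, 2.15 (SE 0.45) for IL-23 in WT and 2.12 (SE 0.45) for Mdl-1-/- IL-23 over WT GFP. The SE here was the widest of the 10 genes, and GFP library 1 had the lowest value of Asprv1.

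A ratio of raw counts within a library does not depend on the scaling. Casp14 had 163 ± 51.7 counts per 1000 Asprv1 counts in Mdl-1-/- IL-23 libraries, 481 ± 60.0 in WT IL-23 libraries and 142 ± 24.5 in GFP libraries (SD, n = 3). The lowest WT IL-23 library, at 414, stood above the highest Mdl-1-/- library, at 216, and the Mdl-1-/- and GFP ranges overlapped. The ratio ran from 113 to 216 in Mdl-1-/- IL-23 libraries and from 116 to 165 in GFP libraries, although both genes had higher CPM in the Mdl-1-/- ears.

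Cnfn codes for cornifelin, a component of the cornified envelope, and lies on chromosome 7 at 25367620 to 25369724, minus strand (ENSMUSG00000063651). Cnfn had 71.1, 71.1 and 82.4 CPM in Mdl-1-/- IL-23 libraries, 82.1, 79.9 and 84.0 CPM in WT IL-23 libraries and 2.96, 7.53 and 3.56 CPM in WT GFP libraries. The IL-23 groups overlapped and lay far above the GFP group. Cnfn was 17.6-fold higher in WT IL-23 than in GFP ears (log2 fold change 4.14, SE 0.24) and 16.1-fold higher in Mdl-1-/- IL-23 than in GFP ears (4.01, SE 0.24). The genotype log2 difference was -0.13 (SE 0.19).

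Sbsn, Dmkn and Krtdap lie in this order on the plus strand of chromosome 7, within 39.6 kb. Sbsn (ENSMUSG00000046056) runs from 30751471 to 30756134, Dmkn (ENSMUSG00000060962) from 30763756 to 30781063 and Krtdap (ENSMUSG00000074199) from 30787896 to 30791097. Their RefSeq start windows, 250 bases before to 50 after the annotated start on GRCm38.p6, are printed because these 3 neighbours were the only ones among the 9 members with a RefSeq window that hold the AP-1 motif TGANTCA, and because Sbsn differs in profile from its 2 neighbours. Matches to the motif, which reads the same on both strands, are in capitals. The windows are chr7:30751221-30751520, chr7:30763506-30763805 (the first of 3 for Dmkn) and chr7:30787655-30787954, all plus strand:
Sbsn: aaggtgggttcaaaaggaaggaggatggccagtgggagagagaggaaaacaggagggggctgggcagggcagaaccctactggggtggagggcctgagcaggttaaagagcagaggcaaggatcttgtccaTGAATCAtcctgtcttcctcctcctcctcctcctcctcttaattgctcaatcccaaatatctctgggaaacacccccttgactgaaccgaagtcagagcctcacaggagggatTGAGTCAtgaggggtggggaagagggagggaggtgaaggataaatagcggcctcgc
Dmkn: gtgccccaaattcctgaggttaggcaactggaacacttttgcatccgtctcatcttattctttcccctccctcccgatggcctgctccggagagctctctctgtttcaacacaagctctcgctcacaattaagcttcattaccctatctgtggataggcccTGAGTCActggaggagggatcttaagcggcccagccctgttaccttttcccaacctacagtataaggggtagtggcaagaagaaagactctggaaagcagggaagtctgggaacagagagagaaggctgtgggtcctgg
Krtdap: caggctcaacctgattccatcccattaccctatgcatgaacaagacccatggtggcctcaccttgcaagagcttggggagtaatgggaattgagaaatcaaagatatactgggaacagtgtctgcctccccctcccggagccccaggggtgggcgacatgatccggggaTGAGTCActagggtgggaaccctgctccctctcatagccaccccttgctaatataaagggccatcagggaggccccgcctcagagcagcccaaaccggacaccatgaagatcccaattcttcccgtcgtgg

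The match nearest to the start is TGAGTCA in each, at position -6 from the start in Sbsn, -89 in Dmkn and -81 in Krtdap, and Sbsn has another match, TGAATCA, at -119. Of all 32851 RefSeq windows of this length, 7.81% hold the AP-1 motif. The other motifs searched were AACCNGTT for grainyhead-like factors, CACCC for KLF factors, TTCNNNGAA for STAT factors, TTGCNNAA for C/EBP factors and TATAAA for the TATA box, on both strands. They were in 2.09%, 57.5%, 8.30%, 10.8% and 13.6% of all windows. Among the 9 members they were found in Tgm5 alone (AACCNGTT), in 8 (CACCC), in Tgm1 alone (TTCNNNGAA), in Tgm3, Sbsn, Dmkn and Tgm1 (TTGCNNAA), and in Tgm3 and Krtdap (TATAAA). The shares of all windows count each window singly, while a member was counted if any of its windows held the motif. The 9 members have 12 windows, 3 of them for Dmkn and 2 for Tgm1. The TTGCNNAA match of Tgm1 is in its window 2 only, and the CACCC matches of Dmkn are in its window 3 only. A match is a run of letters and shows no binding.

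Sbsn, the gene of suprabasin, had an order of groups that no other member showed. Sbsn had 223, 198 and 190 CPM in Mdl-1-/- IL-23 libraries, 79.8, 59.3 and 70.8 CPM in WT IL-23 libraries and 108, 175 and 151 CPM in WT GFP libraries. No library of a group reached the range of another, with WT IL-23 lowest and Mdl-1-/- IL-23 highest. Its log2 fold change was 1.54 (SE 0.18) for genotype, -1.05 (SE 0.18) for IL-23 in WT and 0.49 (SE 0.17) for Mdl-1-/- IL-23 over WT GFP.

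Krtdap, whose product is secreted by differentiating keratinocytes, had 1670, 1640 and 1978 CPM in Mdl-1-/- IL-23 libraries, 1451, 1674 and 2083 CPM in WT IL-23 libraries and 285, 498 and 511 CPM in WT GFP libraries. Both IL-23 groups were above all GFP libraries and overlapped each other. On the log2 scale the change was 0.02 (SE 0.20) for genotype, 2.01 (SE 0.21) for IL-23 in WT and 2.03 (SE 0.21) for Mdl-1-/- IL-23 over WT GFP.

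Dmkn, the gene of the secreted protein dermokine, had 1701, 1779 and 1791 CPM in Mdl-1-/- IL-23 libraries, 1928, 2399 and 2858 CPM in WT IL-23 libraries and 325, 725 and 498 CPM in WT GFP libraries. The 3 groups did not overlap, and the Mdl-1-/- group lay just under the WT IL-23 group. The log2 change came to -0.45 (SE 0.24) for genotype, 2.21 (SE 0.25) for IL-23 in WT and 1.77 (SE 0.25) for Mdl-1-/- IL-23 over WT GFP.

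Within a library, Sbsn had 116 ± 13.2 counts per 1000 Dmkn counts in Mdl-1-/- IL-23, 30.3 ± 9.60 in WT IL-23 and 292 ± 46.1 in GFP libraries (SD, n = 3). Against 1000 Krtdap counts the values were 117 ± 19.1, 41.5 ± 11.7 and 342 ± 41.6. In both ratios the groups did not overlap, and the Mdl-1-/- libraries lay between the WT groups. The Krtdap ratio to Dmkn varied less, at 1000 ± 93.2 counts per 1000 Dmkn counts in Mdl-1-/- IL-23, 726 ± 27.4 in WT IL-23 and 863 ± 171 in GFP libraries. All Mdl-1-/- libraries (922 to 1100) were still above all WT IL-23 libraries (698 to 753), and the GFP range (686 to 1030) overlapped both.

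**Figure D3:**
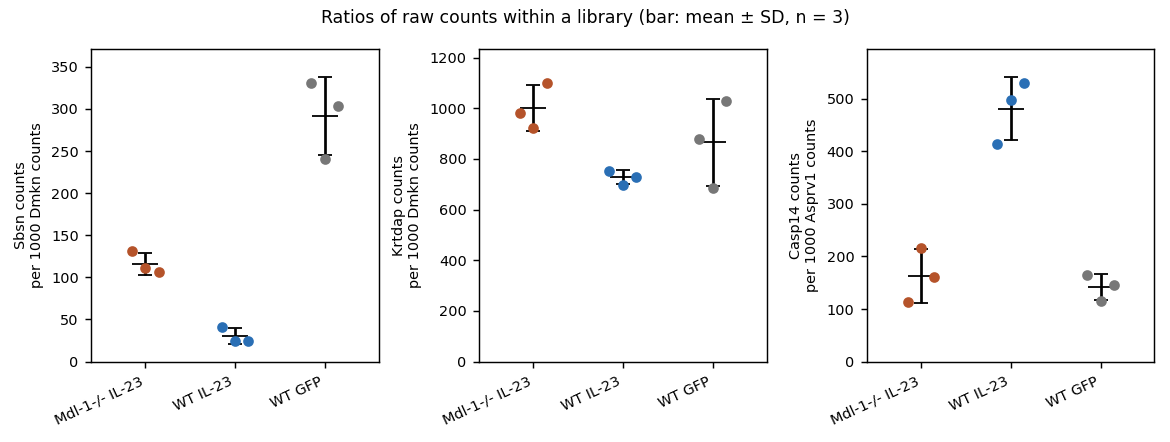
Ratios of raw counts within each library (y, counts of the first gene per 1000 counts of the second) by group (x); points are libraries and bars give the mean ± SD of 3. Sbsn per 1000 Dmkn counts is lowest in WT IL-23 libraries (24.7 to 41.4), and Casp14 per 1000 Asprv1 counts is highest there (414 to 530).

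Set beside all genes, 9 of the 10 members passed edgeR's quasi-likelihood test at an adjusted p under 0.05 for IL-23 in WT, 8 higher and 1 lower, where 44.7% of the 13807 tested genes did, 22.9% higher and 21.7% lower. In the genotype comparison, 4 of 10 passed, 1 higher and 3 lower, with a background of 17.7%, 7.58% higher and 10.1% lower. In Mdl-1-/- IL-23 over WT GFP, 6 of 10 passed, all 6 higher, with a background of 17.1%, 10.2% higher and 6.93% lower. Nothing is read from these counts of members, since the genes were listed with the same values in view. The median log2 fold change of the 10 genes was 2.08, -0.08 and 1.90 in these 3 comparisons, against -0.04, 0.00 and -0.02 over all tested genes. The comparisons share libraries, and so their values are given side by side only. The groups did not overlap for 9, 5 and 7 members, where 54.6%, 36.5% and 35.8% of tested genes had groups that did not overlap. With upper-quartile scaling the share of higher genes among all calls was 38.9% in place of 51.3%, 53.2% in place of 42.9% and 43.7% in place of 59.4%, and the median of all genes moved by -0.15, 0.06 and -0.10; no member's call changed direction.

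**Figure D4:**
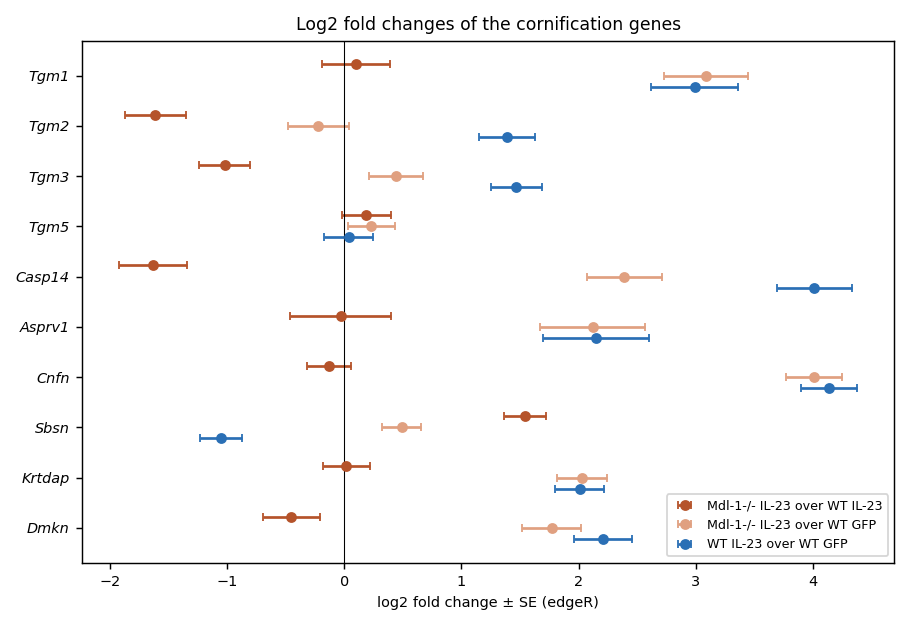
Log2 fold change ± SE (x) of the 10 genes (y) in 3 comparisons that share libraries. Tgm2, Tgm3 and Casp14 lie left of 0 and Sbsn right of 0 for genotype, while Tgm1, Tgm5, Asprv1, Cnfn and Krtdap lie within their SE of 0.

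In the WT groups, libraries of a group differed among themselves in a way most members shared. GFP library 1 had the lowest value of 8 of the 10 genes in its group, and GFP library 2 the highest value of 8. Wild-type IL-23 library 3 was highest for 7 genes and library 1 lowest for 7. No such pattern was seen in the Mdl-1-/- group, where libraries 1, 2 and 3 were highest for 3, 3 and 4 genes and lowest for 4, 2 and 4. Among the WT groups, Tgm1 in GFP library 1 and Sbsn in WT IL-23 library 1 ran the other way.

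The genes with the most similar profile were sought among 8196 genes with a mean of at least 10 CPM. The measure was the root mean square difference of log2 CPM over the 9 libraries after centring each gene on its own mean. Closest to Casp14 were Blmh (0.254), the gene of bleomycin hydrolase, which degrades filaggrin peptides, Klk7 (0.264), a kallikrein that cuts corneodesmosomes, and Trex2 (0.312), a keratinocyte exonuclease. Closest to Asprv1 were the kallikrein gene Klk5 (0.181), Calm4 (0.237) and the corneodesmosin gene Cdsn (0.239). Klk5 had 55.4 ± 4.71 CPM in Mdl-1-/- IL-23, 62.4 ± 9.18 in WT IL-23 and 12.1 ± 5.99 in GFP libraries, and Klk7 had 1980 ± 313, 5890 ± 2400 and 372 ± 134 CPM (SD, n = 3). Each of the 2 protease members had a kallikrein gene among its 3 closest profiles.

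Tgm1 was closest to the beta-defensin gene Defb6 (0.239), to Il1f8 (0.320), which codes for the cytokine IL-36 beta, and to Grhl3 (0.326), a transcription factor of barrier formation. Krtdap was closest to Il1f5 (0.148), the gene of the IL-36 receptor antagonist, to the histidase gene Hal (0.183) and to Cysrt1 (0.189). Dmkn was closest to the epithelial kinase gene Ptk6 (0.151), to Hcar2 (0.186) and to Rab25 (0.187), a small GTPase gene of epithelia. Krtdap and Dmkn were 0.243 apart, with 18 of the 8196 genes nearer to Dmkn and 7 nearer to Krtdap, each count including the gene itself. Sbsn was nearest to Pdcd4 (0.259), Efna3 (0.288) and Emp1 (0.297), of which Emp1 had 470 ± 99.9 CPM in Mdl-1-/- IL-23, 202 ± 41.0 in WT IL-23 and 425 ± 33.7 in GFP libraries. Cnfn was nearest to Psors1c2 (0.315), Tdh (0.408) and Slc5a1 (0.414). Tgm2 was nearest to Ska1 (0.211), Plekhj1 (0.234) and Pdss2 (0.267), Tgm3 to Ahcy (0.139), Noc4l (0.158) and Enah (0.165), and Tgm5 to Glrx2 (0.0550), Tmem59 (0.0700) and Tceanc2 (0.0790).

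Other genes of the pathway were tested in 5 lists. For IL-23 in WT, all 5 held more higher than lower calls, where 22.9% of all tested genes were called higher and 21.7% lower. Of 24 tested envelope precursors and transglutaminase substrates, 14 rose, 2 fell and 8 did not pass, with a median log2 fold change of 1.36. Rptn, the gene of repetin, rose to 704 ± 470 CPM in WT IL-23 ears, against 3.89 ± 1.41 CPM in GFP ears (log2 fold change 7.48, SE 0.83, adjusted p = 0.000522). The small proline-rich genes Sprr1b and Sprr1a rose 78.1-fold and 39.3-fold (adjusted p = 0.000432 and 8.91e-06), and Krt1, a suprabasal keratin gene, rose 22.8-fold (1.57e-05). The 2 that fell, named after their values were seen, were the filaggrin relative Flg2 (-3.93, SE 1.03, adjusted p = 0.0227) and the late envelope gene Lce1m (-2.49, SE 0.67, adjusted p = 0.0208).

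Of 26 tested corneocyte proteases, inhibitors and filaggrin processing genes, 22 rose and none fell in WT IL-23 ears, with a median log2 fold change of 1.87. Klk6 and Klk13 rose 209-fold and 101-fold (edgeR adjusted p = 1e-06 and 6.9e-05), the serine protease inhibitor gene Serpinb3a 97.8-fold (0.000219) and Klk10 43.2-fold (0.000455). Of 22 regulators of terminal differentiation 12 rose and 3 fell (median 0.84). Elf3, Grhl3, Ovol1 and Ehf rose 7.55-fold, 6.86-fold, 5.81-fold and 5.42-fold (adjusted p = 0.00029, 3.53e-06, 3.76e-06 and 0.000212). The Elf3 fold rests on low levels, 3.6 CPM in WT IL-23 ears and 0.458 CPM in GFP ears. The regulators that fell, named after their values were seen, were Maf (-1.28, SE 0.19, adjusted p = 9.28e-05), Dlx3 (-1.18, SE 0.40, 0.0248) and the vitamin D receptor gene Vdr (-0.61, SE 0.16, 0.00561). Of 17 barrier lipid genes 11 rose and 2 fell (median 1.44), with the ceramide synthase gene Cers3 11.4-fold and the lipoxygenase gene Alox12b 7.78-fold higher (adjusted p = 2.8e-07 and 3.41e-07). The lipid genes that fell, named after their values were seen, were the ceramidase gene Acer1 (-0.58) and Slc27a4 (-0.63). Of 12 desmosome genes 11 rose and 1, Dsc3, fell (median 0.99), with Cdsn 4.99-fold higher (0.000308).

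In the genotype comparison, 17.7% of all tested genes were called. Called were 11 of 26 protease and inhibitor genes (42.3%), 6 of 12 desmosome genes and 7 of 22 regulators (31.8%). The shares of envelope precursors (8.3%) and barrier lipid genes (5.9%) were lower than that of all tested genes in the main fit, but not in every alternative. With limma voom 8 of 24 envelope precursors were called, where 2181 of 13807 genes were. With the replicate number as a block 6 of 17 barrier lipid genes were called, where 2800 of 13807 genes were. The lists were chosen with earlier results of these data known, so nothing is read from the shares. Of the protease and inhibitor genes 10 fell and 1 rose; their median log2 change was -0.38 against 0.00 over all tested genes. Klk10 fell to 126 ± 48.2 CPM in Mdl-1-/- ears, against 791 ± 407 CPM in WT ears (log2 fold change -2.65, SE 0.53, edgeR adjusted p = 0.0181). Klk6 fell to 229 ± 70.3, against 1020 ± 387 CPM (-2.16, SE 0.29, adjusted p = 0.00234), and Klk13 to 115 ± 42.0, against 476 ± 138 CPM (-2.04, SE 0.43, 0.0180). Blmh fell to 446 ± 81.9 CPM in Mdl-1-/- ears, against 1480 ± 389 CPM in WT ears (-1.73, SE 0.22, 0.00109). The list had 6 calls without Mdl-1-/- library 1 and 7 without library 3, and the Klk10 and Klk13 calls were lost in those 2 fits (adjusted p = 0.0639 to 0.0691); that of Klk13 was also lost without WT IL-23 library 3 (0.0611). The gene that rose, named after its values were seen, was the calpain subunit gene Capns2 (0.59, adjusted p = 0.0217).

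Of 24 tested envelope precursors 1 rose and 1 fell in Mdl-1-/- ears. Krt10, the partner of Krt1, rose to 14900 ± 1680 CPM in Mdl-1-/- ears, against 5040 ± 642 CPM in WT ears (log2 fold change 1.56, SE 0.19, edgeR adjusted p = 0.000928). Sprr1a fell to 105 ± 19.5, against 244 ± 91.8 CPM (-1.21, SE 0.31, 0.0287), a call lost without WT IL-23 library 3 or Mdl-1-/- libraries 1 or 3 (adjusted p = 0.0612 to 0.101). This list had between 1 and 8 calls over the alternatives, against 2 in the main fit. It had 8 with DESeq2 and with limma voom, and 7 with non-robust dispersions and without a count filter. With a replicate block and with 2 groups only it had 6. Of 22 regulators 3 rose and 4 fell: Dlx3, Pou2f3 and Maf rose by 1.58, 1.34 and 1.10 on the log2 scale (adjusted p = 0.0144, 0.00541 and 0.00242), and the nuclear receptor gene Ppard was 2.16-fold lower (0.00223). Without Mdl-1-/- library 3 this list had 4 calls, and the Dlx3 call was lost in the fits that dropped Mdl-1-/- library 1 (0.0833) or WT IL-23 library 2 (0.0590). Of 17 barrier lipid genes 1, Cers3, fell 2.01-fold (0.00646), with up to 6 calls in the list over the alternatives. Of 12 desmosome genes 2 rose and 4 fell, with Dsc2 2.91-fold lower (0.0072) and Dsc3 1.62-fold higher (0.00414); 2 to 6 were called over the alternatives, 2 of them without Mdl-1-/- library 3. The calls of Pkp3 and Dsp, both lower in Mdl-1-/- ears at adjusted p = 0.0229 and 0.0495, were lost in 4 and 12 of 18 alternatives.

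**Figure D5:**
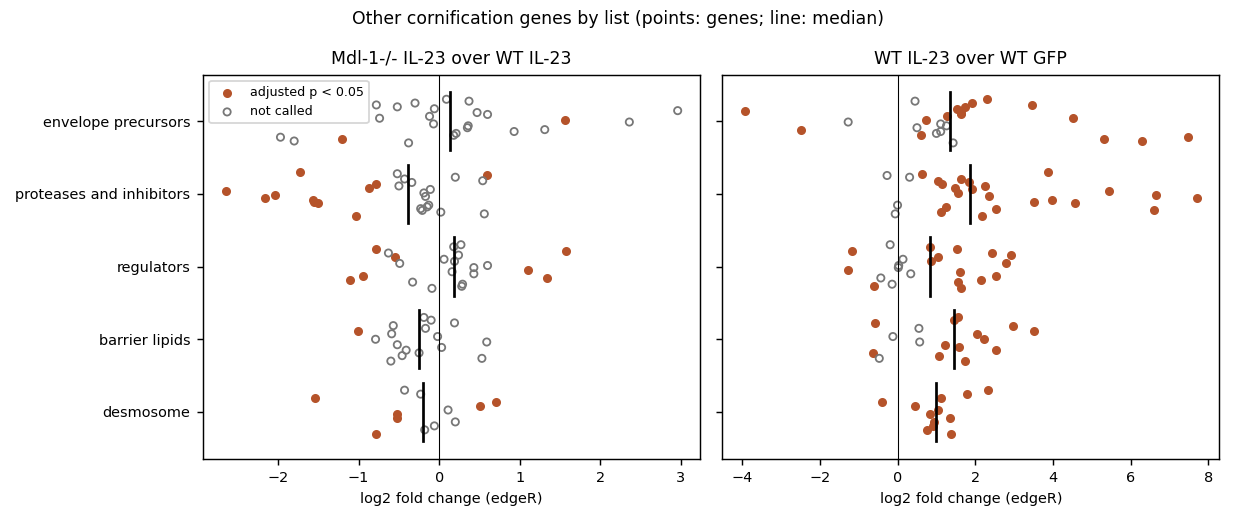
Log2 fold change (x) of the tested genes of 5 lists (y) for genotype (left) and IL-23 in WT (right); filled points passed edgeR's test and black lines are list medians. Protease and inhibitor genes lie at a median of -0.38 on the left and 1.87 on the right.

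For Mdl-1-/- IL-23 over WT GFP, 14 of 24 envelope precursors rose and none fell, as did 19 of 26 protease and inhibitor genes, 14 of 22 regulators and 8 of 12 desmosome genes. Of all tested genes, 10.2% were called higher and 6.93% lower in this comparison. Of 17 barrier lipid genes 12 rose and 1, the fatty acid transporter gene Slc27a4, fell (-0.88, edgeR adjusted p = 0.00789). Serpinb3a was 84.8-fold, Klk6 46.7-fold and Rptn 45.7-fold higher (adjusted p = 0.000988, 1.72e-05 and 0.00515). Blmh and Klk5 had log2 fold changes of 2.15 and 2.19, beside 2.39 for Casp14 and 2.12 for Asprv1. Blmh and Klk5 were named above as the closest profiles to these members in the same libraries, so nothing is read from the likeness.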

How the data were processed

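Ear RNA of 9 libraries in 3 groups of 3 was compared. Per the submitters' processing notes, the authors used STAR 2.7.0a, featureCounts and edgeR; the build named there, GRCh38.p6, is a human name, while the deposited raw count tables carry mouse Ensembl genes, so the alignment build is uncertain. Annotation release, strand and multi-mapping settings: not given in the sources used here. In the 3 count tables each library appears 2 times, with 0 differing values, and they were joined into 54838 genes. Symbols and positions came from GENCODE on GRCm38, and sequences from RefSeq (GRCm38.p6), which held a start window for 9 of the 10 genes.

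Tests used edgeR 4.0.16 under R 4.3.3: filterByExpr (minimum count 10, minimum total 15; 13807 genes), TMM scaling, 1 model of 3 group means, robust quasi-likelihood F-test with Benjamini-Hochberg adjustment, called under 0.05. SE values were derived from F. The procedure was tested on simulated counts. The members and lists were chosen with earlier results of these data known. Named are the 10 members, up to 4 called genes per list and comparison with groups that do not overlap, by largest change, and the 3 closest profiles. A gene that this rule names is not reported here.

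Deposited tables of the authors' comparisons hold their log2 fold changes and log2 CPM, with p-values and false discovery rates; for the 10 genes the authors' deposited table differed from the log2 fold changes here by at most 0.05, after reversing its sign in the genotype comparison, where it is coded as WT over Mdl-1-/-. Alternatives were other scalings (RLE, upper quartile), filters (none, minimum count 30), DESeq2 1.42.0, limma 3.58.1 voom, non-robust dispersions, 2 groups only, a replicate block and leaving out each library.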

Additional observations from a re-analysis of the deposited data

How the results depend on the processing

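Over 540 alternative values of the 10 genes, none reversed a called direction: 338 kept a call, 4 lost it, 5 gained it and 193 stayed uncalled. Asprv1 lost its call in Mdl-1-/- IL-23 over WT GFP without a count filter, with 2 groups only, without GFP library 3 and without Mdl-1-/- library 2. The gains were Dmkn without a count filter in the genotype comparison, and Sbsn in Mdl-1-/- IL-23 over WT GFP without a count filter, with limma voom, and after dropping GFP library 2 or WT IL-23 library 1. The cause was not tested. Dropping each library gave 4, 9 and 5 to 7 members called for genotype, IL-23 in WT and Mdl-1-/- IL-23 over WT GFP. Over all genes the counts ran from 1128 to 2802, 4622 to 6352 and 1340 to 2580, and for the 5 lists with F13a1 from 15 to 31, 71 to 82 and 59 to 73. The first fell to 1128, 1300, 1166 and 1363 without WT IL-23 libraries 2 or 3 or Mdl-1-/- libraries 1 or 3, and the third to 1340 and 1365 without GFP library 3 or Mdl-1-/- library 2.

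Libraries share only a replicate number: deviations of same-numbered libraries from their group means correlated at -0.0860 to 0.230. Those of differently numbered libraries of different groups correlated at -0.214 to 0.175. With the number as a block, the calls were 2800, 6257 and 2682 genes and 4, 9 and 6 members. Depth limits Tgm1 most, with 5 to 8 counts in GFP libraries.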
